A study of Brachypodium distachyon and Sorghum bicolor and Panicum virgatum with 44 samples.

Results

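In Brachypodium distachyon, a small temperate model grass, 163 of 34310 genes lay at least 2-fold from the control, on opposite sides in cold and in heat. They were chosen from the RNA-seq abundance in TPM (the share of the transcripts of a library that come from a gene, corrected for gene length and scaled to a fixed total), as the mean of 2 replicates. The ratio was (stress mean + 1)/(control mean + 1). Of the 163 genes, 79 had a cold ratio of at least 2 and a heat ratio of at most 0.5, and 84 had a cold ratio of at most 0.5 and a heat ratio of at least 2. The 2 directions are described apart. The cold and heat values chose these genes, so they are given below as a description with no test.

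The plants were of the inbred line Bd21 and were grown in soil at 20 °C with 20 h of light and 4 h of dark. On day 21, 10 h after the light came on, plants were moved to 4 °C (cold) or 40 °C (heat), taken out of the soil with their roots dried (drought), or covered by at least 5 cm of water (submergence). Shoots were harvested once the stress had lasted 12 h, and from plants that received none (control), with 2 biological replicates in each of the 5 groups and so 10 libraries. Whether control plants were sampled at the same hour of the day as stressed plants is not given in the sources used here, so stress and hour of sampling cannot be told apart. The series also holds 34 libraries of PARE (Parallel Analysis of RNA Ends), a method that reads the 5′ ends left on RNA by cleavage and decay. A read at a predicted site can mark a cut by a miRNA, but it can also come from other decay of the RNA.

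Low temperature slows enzymes and stiffens membranes, and plants that acclimate to it make protective proteins and sugars and change their membrane lipids. High temperature unfolds proteins and loosens membranes, and plants answer it with chaperones. In Arabidopsis, many genes induced by cold are also induced by drying, through DREB/CBF factors and the hormone abscisic acid. Drought and submergence are given beside cold and heat to show what the same genes did in stresses that did not choose them.

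The sequences shown here are those of the miRNAs whose predicted site in one of the 163 genes reached a prominence level of 2 or more. The level runs from 0 (no PARE read at the site) to 4, and increases with each criterion met for the abundance, the rank and the share of the PARE reads of the transcript. They were copied from the deposited site table and are written 5′ to 3′, with the seed (bases 2 to 8) in capitals.
miR7753-5p: aUGUCUUCuuccuugcucauc
miR7752-5p: aUGCUCUUcccacugucauuuucc
miR7757-3p.1: gGUAGUUGaauguuuuguuua
miR156b-5p: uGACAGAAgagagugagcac
miR169j-5p: uAGCCAGGaauggcuugccua
miR169b: uAGCCAAGgaugacuugccgg
miR169m: uAGCCAAGgaugacuugccg
The miR156 entry stands for several members of that family with the same sequence. Of the 3 miR169 entries, miR169b and miR169m share a seed and miR169j-5p has another. The sites themselves are described after the expression values.

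The libraries held from 9885357 to 17978729 expected counts, and the replicates of each group correlated across genes at r from 0.986 to 0.993 on log2(TPM + 1). All 10 libraries held a chlorophyll a/b binding protein gene (Bradi1g24870) at 3257 and 4015 TPM in cold, 3492 and 3009 TPM in heat, 546 and 588 TPM in drought, 2103 and 2315 TPM in submergence, and 3876 and 3850.4 TPM in control. It was the one photosynthesis gene with a name in the table used here, so green tissue could be checked on this gene alone. In bulk tissue, fewer cells of a type and less RNA per cell cannot be told apart.

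The scale of the values bears on which genes were chosen. Over the 21076 genes with a control mean of at least 1 TPM, the median log2 ratio was −0.27 in cold, 0.12 in heat, −0.35 in drought and 0.19 in submergence. Dividing each library by its TMM factor (trimmed mean of M values, a scaling that sets the bulk of genes level between libraries) brought these medians to −0.03, −0.02, −0.11 and 0.01. On that scale the rule gave 120 genes higher in cold and lower in heat, among them all 79, and 37 genes lower in cold and higher in heat, all of them among the 84. The remaining 47 of the 84 genes met the rule on the deposited TPM scale and missed it on the rescaled one, an alternative chosen after seeing the data.

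**Figure D1:**
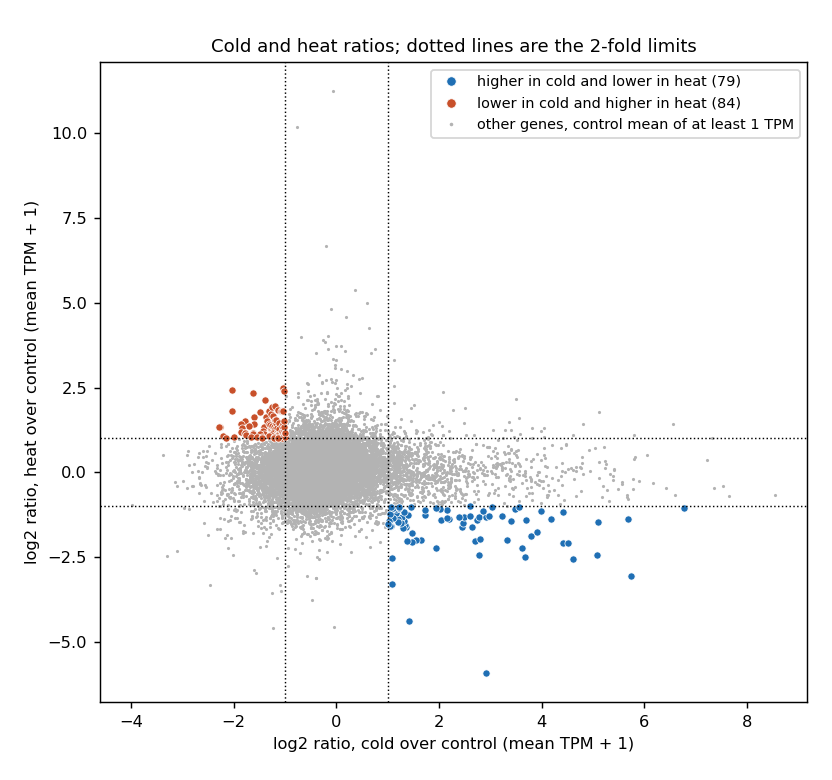
Log2 ratio of heat over control against log2 ratio of cold over control, each point 1 gene, with the 2-fold limits as dotted lines. The 79 genes higher in cold and lower in heat reach cold ratios up to 6.77 on the log2 scale, whereas the 84 genes lower in cold and higher in heat lie close to the limits, with cold ratios no lower than −2.28 and heat ratios no higher than 2.49.

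Both directions were a small part of the genes that moved in either stress by the same limits. The 79 genes made up 5.12% of the 1543 genes with a cold ratio of at least 2 and 12.2% of the 650 genes with a heat ratio of at most 0.5. The 84 genes made up 4.40% of the 1910 genes with a cold ratio of at most 0.5 and 6.61% of the 1270 genes with a heat ratio of at least 2. For the 79 genes the median log2 ratio was 2.16 in cold (from 1.02 to 6.77) and −1.41 in heat (from −5.91 to −1.0). For the 84 genes it was −1.24 in cold and 1.29 in heat. In cold, both libraries lay above both controls for 77 of the 79 genes, as for 15.5% of the 21076 genes, and below both for 84 of the 84, as for 56.2%. In heat, both lay below both controls for 79 of the 79 genes, against a background of 24.3%, and above both for 81 of the 84, against 41.9%. The rule used these contrasts, and nothing is read from the counts.

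Just inside the limits stood Bradi5g19380, Bradi2g53561 and Bradi5g13663, with heat ratios of 0.499, 0.498 and 0.496, and Bradi2g14500, Bradi5g15960 and Bradi3g55880, with cold ratios of 0.5, 0.499 and 0.497. Just outside stood Bradi1g27130 with a cold ratio of 1.98, Bradi3g48490 with a heat ratio of 0.506 and Bradi2g61500 with a cold ratio of 1.96. On the other side, Bradi2g17922 and Bradi4g16715 had cold ratios of 0.501 and 0.501, and Bradi4g09644 had a heat ratio of 1.99.

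The 79 genes that were higher in cold and lower in heat took a large share of the transcripts in 2 of the stresses. Their summed abundance was 36527 and 27433 TPM in cold, 1224 and 1221 TPM in heat, 35186 and 31128 TPM in drought, 5957 and 7056 TPM in submergence, and 4518 and 5584 TPM in control. Thus they were 3.20% of the transcripts in cold, 0.122% in heat, 3.32% in drought, 0.651% in submergence and 0.505% in control. A few genes carried much of this: the top 5 made up 43.5% of the sum in cold and 65.2% in drought. The median gene had 106 TPM in cold, 4.23 TPM in heat, 51.1 TPM in drought, 21.8 TPM in submergence and 15.9 TPM in control. The highest mean was in cold for 55 of the 79 genes, in drought for 20 and in submergence for 4, and the lowest was in heat for 70, in drought for 6 and in submergence for 3. The rule itself sets cold above control and heat below it in these genes, and the same ranks were not counted over all genes.

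The 84 genes that were lower in cold and higher in heat took a small share of the transcripts in every group. Their sum was 414 and 522 TPM in cold, 4156 and 3782 TPM in heat, 1284 and 1487 TPM in drought, 1236 and 1326 TPM in submergence, and 1428 and 1276 TPM in control. The median gene had 2.06 TPM in cold, 20.0 TPM in heat, 2.23 TPM in drought, 6.76 TPM in submergence and 6.67 TPM in control. The highest mean was in heat for 77 genes, in drought for 5 and in submergence for 2. The lowest was in cold for 47, in drought for 32 and in submergence for 5. Here too the rule bears on the ranks of cold and heat, and the ranks of all genes were not counted. A single gene, Bradi2g62520, made up 44.0% of their sum in drought.

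**Figure D2:**
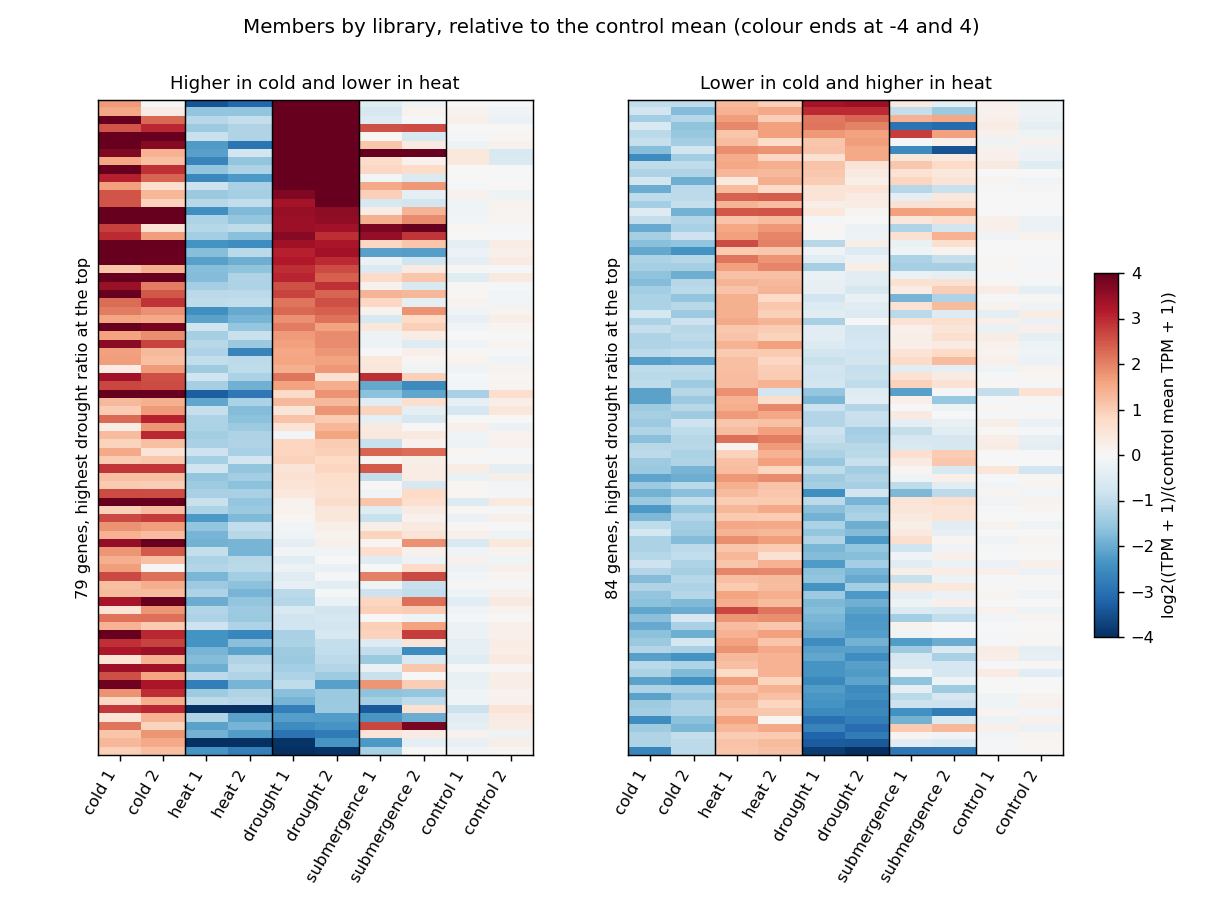
Each row is 1 of the 79 genes (left) or 84 genes (right), ordered from the highest drought ratio down, each column is 1 library, and the colour is log2((TPM + 1)/(control mean TPM + 1)). The colour ends at −4 and 4. In the left panel 20 genes were highest in drought, and in the right panel 32 genes were lowest in drought. Such ranks were not counted over all genes. Of the 21076 genes with a control mean of at least 1 TPM, 3140 had a drought ratio of at least 2 and 5685 of at most 0.5.

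Drought separated from submergence in these genes, in opposite ways for the 2 directions. Drought against submergence is the comparison that uses none of the control, cold or heat libraries by which the genes were chosen, other than through the spread shared by all 10 libraries in the fit. It was tested with edgeR's quasi-likelihood test on rounded expected counts of 23494 genes, with Benjamini-Hochberg adjustment over all of them. Among the 79 genes, 42 were higher in drought and 11 were lower at an adjusted p under 0.05 (29.0% and 29.5% of all genes tested), and the median log2 fold change was 1.2, against −0.08 over all genes. Among the 84 genes, 81 could be tested, of which 11 were higher in drought and 42 were lower, with a median of −1.02. At least 2-fold higher were 40 of the 42 and at least 2-fold lower 10 of the 11 in the first direction, and 11 of the 11 and 38 of the 42 in the second. The share of all called genes that changed at least 2-fold was not counted, so nothing is read from these numbers. Over all genes tested, the quartiles of the log2 fold change were −0.93 and 0.78.

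Drought against control gave the same kind of split, but it shares the 2 control libraries with the rule. Of the 79 genes, 46 rose in drought and 14 fell (32.1% and 32.8% of all genes), with a median log2 fold change of 1.36 against −0.07 over all genes. The 14 genes that fell became 8 and 9 without drought replicate 1 and 2, and 7 without control replicate 2. Of the 81 tested genes of the other direction, 11 rose and 47 fell, with a median of −1.12. The 11 that rose became 7 without either control library.

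Groups of genes by their drought call differed in level. The 46 that rose had median levels of 108 TPM in cold, 4.93 TPM in heat, 112 TPM in drought, 23.8 TPM in submergence and 15.8 TPM in control. The 14 that fell had 100.4 TPM in cold, 8.42 TPM in heat, 10.7 TPM in drought, 54.8 TPM in submergence and 26.7 TPM in control. Their medians lay close together in cold and far apart in drought. In the other direction, the 47 genes that fell had medians of 2.06 TPM in cold, 23.7 TPM in heat, 1.54 TPM in drought, 7.06 TPM in submergence and 8.66 TPM in control, and the 11 that rose had 2.63 TPM in cold, 23.0 TPM in heat, 39.0 TPM in drought, 9.14 TPM in submergence and 8.07 TPM in control. These groups were formed by the drought call, so their drought medians are a description.

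Submergence against control, which also shares the controls, moved fewer of these genes than drought did, as it moved fewer of all genes. Of the 79 genes, 12 rose and 10 fell (14.9% and 16.6% of all genes), and the median log2 fold change was 0.05, against 0.00 over all genes. With libraries scaled by their size only, the median of all genes was 0.20, and 5401 of all genes rose and 2688 fell. On that scale the split of the 79 genes was 17 higher and 8 lower, leaning the same way as all genes. Without control replicate 2, 5 of the 79 fell. Of the 81 genes, 7 rose and 24 fell, with a median of −0.24, and by library size alone 10 rose and 20 fell, beside those same counts of all genes. These counts changed when 1 library was left out, and the median of these genes then ran from −0.45 to −0.22. A group that loses a library is left with 1, and the calls of all genes in such fits were not counted.

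**Figure D3:**
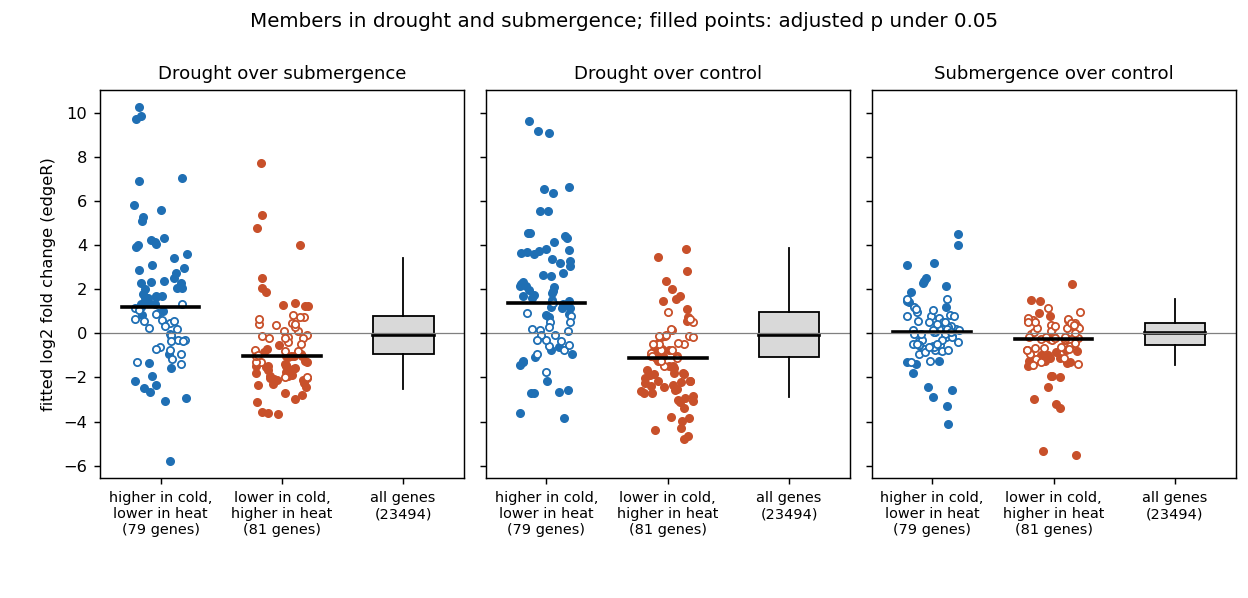
Fitted log2 fold changes of the genes in 3 comparisons (points, filled where the adjusted p was under 0.05; bars, medians), beside all 23494 genes tested (box, quartiles; whiskers, 5th to 95th percentile). The medians of drought over submergence are 1.2 for the genes higher in cold and lower in heat and −1.02 for those lower in cold and higher in heat, and those of submergence over control are 0.05 and −0.24.

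Several abundant genes of those higher in cold and lower in heat were high in both cold and drought, among them Bradi1g03760, the most abundant of the 79 by its mean over the 10 libraries. Bradi1g03760 had 6562 and 3696 TPM in cold, 24.5 and 19.3 TPM in heat, 3848 and 3677 TPM in drought, 48.3 and 28.9 TPM in submergence, and 43.6 and 48.4 TPM in control. Cold and drought libraries were all above the other 6, and heat libraries were below both controls. Its log2 fold change was 7.06 ± 0.41 (standard error) in drought against submergence, with an adjusted p of 1.61e-06, and 6.57 ± 0.40 in drought against control. Bradi1g65780 had 1584 and 533 TPM in cold, 7.96 and 4.76 TPM in heat, 2918 and 3209 TPM in drought, 92.8 and 54.7 TPM in submergence, and 36.4 and 48.0 TPM in control. Here drought stood above cold, and cold replicate 1 lay well above replicate 2, with no overlap between cold and any other group. It rose by 5.83 ± 0.55 on the log2 scale in drought against submergence, with an adjusted p of 2.32e-05.

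Bradi2g36770 and Bradi1g13330 had higher control levels and were also highest in drought, followed by cold. Bradi2g36770 had 1980.5 and 1128 TPM in cold, 37.4 and 44.8 TPM in heat, 5286 and 3904 TPM in drought, 209 and 150.1 TPM in submergence, and 224 and 228 TPM in control. Heat was the lowest group, and submergence lay below both controls. Bradi1g13330 had 3019.5 and 1244 TPM in cold, 53.8 and 68.3 TPM in heat, 3312 and 3373 TPM in drought, 290 and 272 TPM in submergence, and 163 and 165 TPM in control. In drought against submergence they rose by 5.13 ± 0.35 and 4.03 ± 0.40 on the log2 scale, with adjusted p of 3.56e-06 and 3.10e-05.

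The genes with the largest drought change were far less abundant in cold than in drought. Bradi1g37410 had 34.5 and 9.39 TPM in cold, 0 and 0.22 TPM in heat, 8653 and 5064 TPM in drought, 6.74 and 8.39 TPM in submergence, and 9.71 and 10.0 TPM in control. Cold replicate 2 lay below both controls, so this gene met the cold limit through replicate 1. It was the most abundant of the 79 in drought, with 20.7% of their sum, and its log2 fold change was 10.27 ± 0.69 in drought against submergence (adjusted p = 3.34e-06). Bradi1g76200 had 39.7 and 9.53 TPM in cold, 0 and 0.11 TPM in heat, 500.4 and 608 TPM in drought, 0.50 and 1.05 TPM in submergence, and 1.48 and 0.84 TPM in control. Its log2 fold change was 9.89 ± 0.74 in drought against submergence (adjusted p = 6.03e-06). Drought was far above cold, and cold above the other groups, while heat, submergence and control were all close to 0.

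A run of 3 neighbouring genes by identifier, Bradi2g18090, Bradi2g18095 and Bradi2g18101, belonged to this direction. Bradi2g18090 had 7.72 and 2.79 TPM in cold, 0 and 0 TPM in heat, 1164 and 852 TPM in drought, 0.90 and 2.30 TPM in submergence, and 2.27 and 1.71 TPM in control. Bradi2g18095 had 561 and 276 TPM in cold, 3.06 and 3.72 TPM in heat, 169 and 145 TPM in drought, 14.6 and 9.62 TPM in submergence, and 12.9 and 21.9 TPM in control. Bradi2g18101 had 578 and 199 TPM in cold, 1.23 and 1.09 TPM in heat, 121 and 111 TPM in drought, 19.5 and 24.0 TPM in submergence, and 7.79 and 13.4 TPM in control. All 3 were lowest in heat, but the first was highest in drought and the other 2 in cold. Their log2 fold changes in drought against submergence were 9.72 ± 0.53, 4.15 ± 0.41 and 2.87 ± 0.44, with adjusted p of 2.33e-06, 2.79e-05 and 0.000421. Whether these neighbours share sequence, and so reads, was not tested.

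The gene with the largest smaller one of its 2 ratios was Bradi5g21290. It had 1033 and 532 TPM in cold, 0.51 and 1.01 TPM in heat, 23.8 and 50.0 TPM in drought, 3.68 and 2.47 TPM in submergence, and 4.99 and 22.4 TPM in control. Cold was above every other library and heat below every other, although the 2 controls lay far apart. In drought against submergence it rose by 4.05 ± 0.72 on the log2 scale (adjusted p = 0.00104). Bradi2g10880 had 369.9 and 234 TPM in cold, 1.59 and 3.13 TPM in heat, 157 and 168 TPM in drought, 16.3 and 35.7 TPM in submergence, and 11.6 and 14.8 TPM in control. It was ordered cold, drought, submergence, control and heat with no overlap between neighbours, and its log2 fold change in drought against submergence was 3.11 ± 0.38 (adjusted p = 0.000101).

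Other genes higher in cold fell in drought. Bradi4g30060 had 1143 and 1362 TPM in cold, 115 and 88.3 TPM in heat, 33.3 and 38.1 TPM in drought, 241 and 585 TPM in submergence, and 547 and 633 TPM in control. Drought was below heat in both libraries, and the log2 fold change was −3.05 ± 0.35 in drought against submergence and −3.82 ± 0.36 in drought against control (adjusted p = 7.27e-05 and 1.46e-05). Bradi3g37940 had 344 and 537 TPM in cold, 42.2 and 32.6 TPM in heat, 19.7 and 21.3 TPM in drought, 228 and 197 TPM in submergence, and 179 and 136 TPM in control. It fell by 2.92 ± 0.25 on the log2 scale in drought against submergence (adjusted p = 1.44e-05). Bradi4g36120 had 81.0 and 33.3 TPM in cold, 3.14 and 4.13 TPM in heat, 2.24 and 2.57 TPM in drought, 117 and 255 TPM in submergence, and 13.1 and 21.8 TPM in control. It was high in cold and submergence and low in heat and drought, and gave the largest fall of the 79 genes in drought against submergence, −5.78 ± 0.59 on the log2 scale (adjusted p = 3.68e-05).

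The lowest heat ratio of the 79 was that of Bradi1g12130. It had 1422 and 1632 TPM in cold, 2.38 and 2.34 TPM in heat, 29.1 and 73.1 TPM in drought, 18.7 and 310.3 TPM in submergence, and 109.9 and 292 TPM in control. The control mean exceeded the heat mean 60.1-fold with 1 TPM added, and the 2 submergence libraries lay on both sides of the controls. Its drought against submergence log2 fold change of −1.17 ± 0.93 did not pass the test (adjusted p = 0.301). Bradi4g07380 had 2661 and 3036 TPM in cold, 53.7 and 46.5 TPM in heat, 69.3 and 208 TPM in drought, 214 and 825 TPM in submergence, and 866 and 1255 TPM in control. Heat and drought were low in both libraries, and it was the most abundant of the 79 in control. It fell by 2.71 ± 0.62 on the log2 scale in drought against control (adjusted p = 0.0035), and its drought against submergence value of −1.40 ± 0.59 did not pass (adjusted p = 0.0658). Bradi5g21531 and Bradi4g02570 were lower in drought than in submergence by 2.48 ± 0.48 and 2.65 ± 0.58 on the log2 scale (adjusted p = 0.00166 and 0.00316). Bradi5g21531 had 89.3 and 39.3 TPM in drought, 612 and 357 TPM in submergence, and 149 and 213 TPM in control. Bradi4g02570 had 7.54 and 12.6 TPM in drought, 39.0 and 142 TPM in submergence, and 16.8 and 23.3 TPM in control. In both genes drought lay below both controls and submergence above them. Bradi2g11940 had 1151 and 1285 TPM in cold, 37.0 and 53.4 TPM in heat, 195 and 257 TPM in drought, 98.6 and 210.5 TPM in submergence, and 159 and 212 TPM in control. Cold stood above and heat below all other libraries, whereas drought and submergence both overlapped control. Its drought against submergence log2 fold change of 1.03 ± 0.33 (adjusted p = 0.0228) was 0.78 without drought replicate 2 and 0.61 without submergence replicate 1 and no longer passed (adjusted p = 0.145 and 0.128).

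In submergence, a few genes higher in cold moved far. Bradi5g26320 had 485 and 95.5 TPM in cold, 7.13 and 21.4 TPM in heat, 1399 and 1529.8 TPM in drought, 1148 and 778 TPM in submergence, and 48.6 and 23.2 TPM in control. It was raised in both drought and submergence, with log2 fold changes against control of 5.58 ± 0.83 and 4.53 ± 0.79 (adjusted p = 0.000248 and 0.00288). Bradi1g34830 had 115 and 24.1 TPM in cold, 6.94 and 7.68 TPM in heat, 184 and 178 TPM in drought, 234 and 401 TPM in submergence, and 17.5 and 15.3 TPM in control. It was highest in submergence, where its log2 fold change against control was 4.03 ± 0.59 (adjusted p = 0.00136). Bradi2g19910 had 181 and 136 TPM in cold, 1.69 and 3.13 TPM in heat, 75.4 and 89.9 TPM in drought, 0.94 and 0.91 TPM in submergence, and 6.48 and 9.12 TPM in control. It was high in cold and drought and low in heat and submergence, with a log2 fold change of 6.93 ± 0.37 in drought against submergence (adjusted p = 1.20e-06). Bradi1g27478 had 11.1 and 25.8 TPM in cold, 0.28 and 0.49 TPM in heat, 0.09 and 0.24 TPM in drought, 0.14 and 0.18 TPM in submergence, and 2.13 and 2.77 TPM in control. Cold alone was above control, and its log2 fold changes against control were −3.63 ± 0.73 in drought and −4.12 ± 0.67 in submergence (adjusted p = 0.00158 and 0.00208).

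Among the genes lower in cold and higher in heat, the strongest by the smaller ratio was Bradi5g04070. It had 4.74 and 5.07 TPM in cold, 153 and 104 TPM in heat, 6.46 and 4.44 TPM in drought, 15.5 and 14.8 TPM in submergence, and 26.3 and 19.8 TPM in control. Drought and cold overlapped at the bottom, and drought against submergence gave a log2 fold change of −1.02 ± 0.22 (adjusted p = 0.00309). Bradi5g02214 had 2.90 and 3.30 TPM in cold, 55.1 and 61.4 TPM in heat, 5.22 and 6.31 TPM in drought, 14.1 and 18.4 TPM in submergence, and 15.4 and 16.2 TPM in control. It too was low in cold and drought, with submergence libraries on both sides of the controls, and its log2 fold change in drought against submergence was −1.02 ± 0.21 (adjusted p = 0.00242). Bradi3g34105, Bradi2g41060 and Bradi1g38360 fell in drought against submergence by 2.08 ± 0.32, 2.01 ± 0.42 and 2.12 ± 0.37 on the log2 scale (adjusted p = 0.000398, 0.00243 and 0.000984), and Bradi1g63390 by 1.01 ± 0.26 (adjusted p = 0.00736). The value of Bradi1g63390 was −0.81 without drought replicate 1 and no longer passed (adjusted p = 0.0542). Bradi5g15835 had a drought against submergence value of −0.05 ± 0.31, which did not pass (adjusted p = 0.893).

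The largest falls in drought against submergence within this direction were in Bradi1g15430 and Bradi5g09340. Bradi1g15430 had 43.6 and 32.8 TPM in cold, 299 and 339.6 TPM in heat, 17.9 and 13.4 TPM in drought, 244 and 296 TPM in submergence, and 137 and 99.7 TPM in control. It was high in heat and submergence and low in cold and drought, and it fell by 3.66 ± 0.23 on the log2 scale in drought against submergence (adjusted p = 2.76e-06). Bradi5g09340 had 5.79 and 6.52 TPM in cold, 33.0 and 36.5 TPM in heat, 0.56 and 0.52 TPM in drought, 10.5 and 9.62 TPM in submergence, and 13.6 and 15.4 TPM in control. Drought was the lowest group with no overlap, and the log2 fold change in drought against submergence was −3.63 ± 0.30 (adjusted p = 1.10e-05). Bradi2g33340 and Bradi2g19520 fell by 3.56 ± 0.33 and 3.11 ± 0.69 in the same comparison (adjusted p = 2.12e-05 and 0.00352). The near neighbour of Bradi2g19520 by identifier, Bradi2g19540, was of the same direction, with 30.2 and 19.7 TPM in heat against 4.17 and 4.17 TPM in control, and its drought against submergence value of −0.16 ± 0.50 did not pass the test (adjusted p = 0.792).

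A smaller group of genes lower in cold and higher in heat stood higher in drought than in submergence. Bradi2g62520, the most abundant of the 84, had 73.5 and 145 TPM in cold, 872 and 833 TPM in heat, 527 and 693 TPM in drought, 39.9 and 21.1 TPM in submergence, and 271 and 209 TPM in control. It was high in heat and drought and low in cold and submergence, with no overlap with control in any of the 4 stresses. Its log2 fold change was 4.77 ± 0.42 in drought against submergence (adjusted p = 1.52e-05). Bradi3g06240 had 5.73 and 2.34 TPM in cold, 38.2 and 31.2 TPM in heat, 44.3 and 39.4 TPM in drought, 0.33 and 0.22 TPM in submergence, and 11.7 and 6.84 TPM in control. The same groups were high and low, with the largest drought against submergence change of the 84 genes, 7.74 ± 0.51 on the log2 scale (adjusted p = 3.23e-06). Bradi1g32521 and Bradi2g14500 rose by 5.39 ± 0.42 and 4.00 ± 0.28 in the same comparison (adjusted p = 7.23e-06 and 4.43e-06), and Bradi2g53470 by 2.05 ± 0.27 (adjusted p = 0.000158), whereas Bradi5g15360 fell by 1.40 ± 0.20 (adjusted p = 0.000238).

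Bradi1g67580 and Bradi1g03686 fell in both drought and submergence. Bradi1g67580 had 1.70 and 2.03 TPM in cold, 14.0 and 13.6 TPM in heat, 0.18 and 0.16 TPM in drought, 0.28 and 0 TPM in submergence, and 6.46 and 5.37 TPM in control. Heat alone was above control. Against control it fell by 4.78 ± 0.59 on the log2 scale in drought and by 5.53 ± 0.56 in submergence (adjusted p = 7.73e-05 and 0.000378). Bradi1g03686 fell by 4.67 ± 0.56 and 3.39 ± 0.45 (adjusted p = 6.25e-05 and 0.000891). The largest submergence rises of this direction were 2.23 ± 0.41 in Bradi4g24140 and 1.54 ± 0.29 in Bradi3g07556 (adjusted p = 0.00368 and 0.00402). Without control replicate 2 these were 2.04 and 1.26 and no longer passed (adjusted p = 0.0504 and 0.0536).

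**Figure D4:**
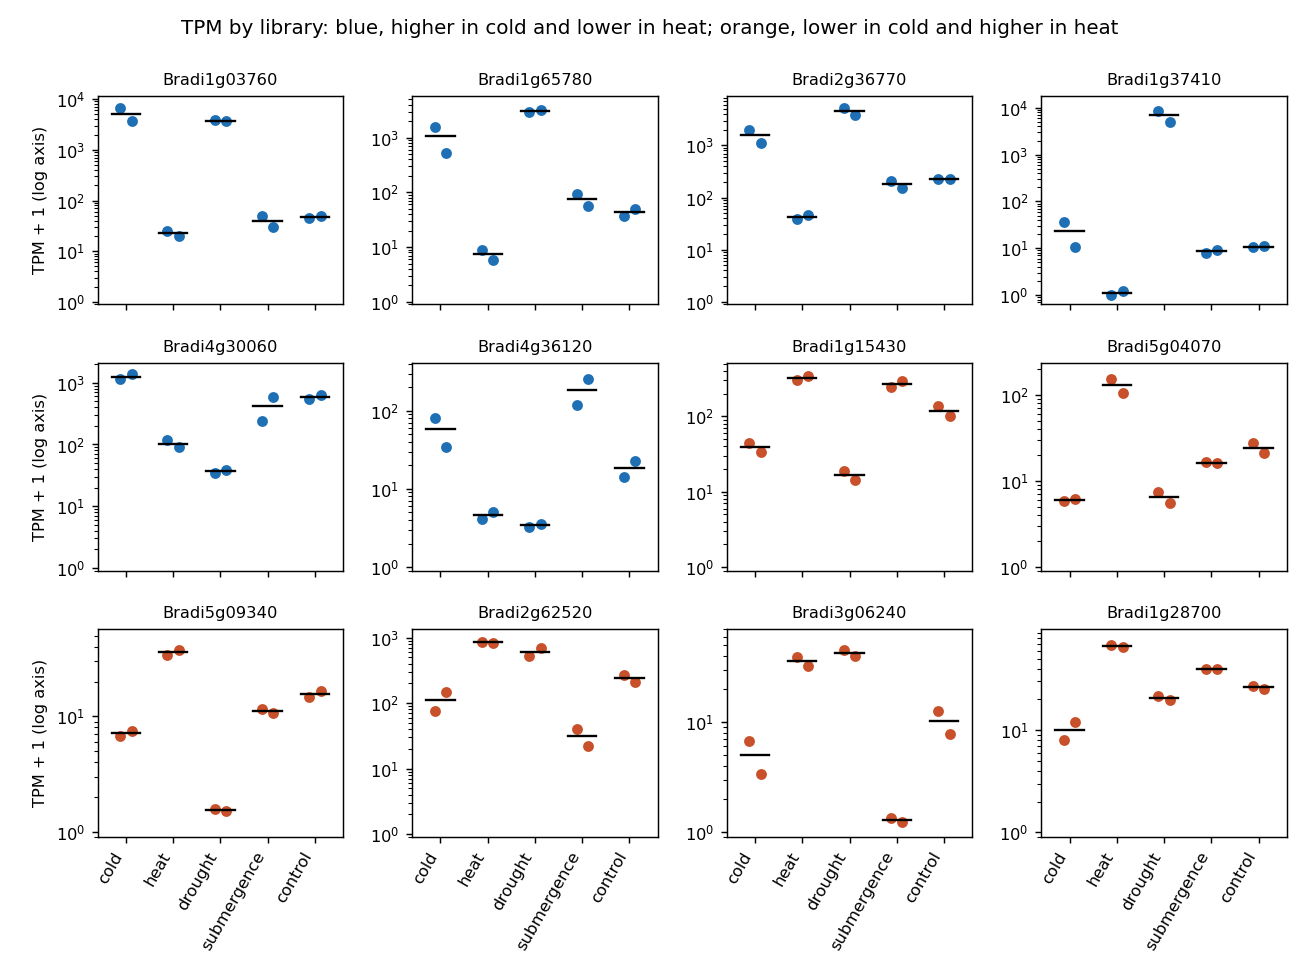
TPM + 1 on a log axis in each library (points) with the group mean (bar), for 6 genes higher in cold and lower in heat (blue) and 6 genes lower in cold and higher in heat (orange). In Bradi1g37410 the drought libraries (8653 and 5064 TPM) stand apart from all others, while in Bradi4g30060 and Bradi5g09340 the drought libraries are the lowest.

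Only 5 of the 163 genes carried a protein family name in the annotation used here, and they were described after their values were seen. In the first direction, Bradi1g10540 belongs to the alpha/beta hydrolase family, a large fold of lipases, esterases and related enzymes. It had 163 and 60.1 TPM in cold, 4.76 and 5.33 TPM in heat, 85.7 and 112 TPM in drought, 15.9 and 8.78 TPM in submergence, and 14.3 and 13.4 TPM in control. It rose by 3.45 ± 0.46 on the log2 scale in drought against submergence (adjusted p = 0.000192). Bradi1g13180 carries a zinc knuckle, a small metal-binding fold found in proteins that bind nucleic acids. It had 122 and 88.8 TPM in cold, 18.6 and 17.8 TPM in heat, 115 and 117 TPM in drought, 51.4 and 40.6 TPM in submergence, and 42.0 and 33.5 TPM in control. It rose by 1.80 ± 0.20 on the log2 scale in drought against submergence (adjusted p = 6.76e-05). Both genes were high in cold and drought, while submergence lay near control.

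In the other direction, Bradi1g30740 carries the C-terminal domain of 3-oxoacyl-ACP synthase III, which is found in enzymes that condense acyl chains. It had 5.59 and 9.93 TPM in cold, 76.8 and 88.0 TPM in heat, 26.9 and 21.7 TPM in drought, 10.7 and 15.1 TPM in submergence, and 29.9 and 21.5 TPM in control. It was higher in drought than in submergence by 1.37 ± 0.27 on the log2 scale (adjusted p = 0.00184). Bradi1g28700 belongs to the ORMDL family, whose yeast and human members restrain the first step of sphingolipid synthesis. It had 6.95 and 11.0 TPM in cold, 66.7 and 63.9 TPM in heat, 20.5 and 18.6 TPM in drought, 39.0 and 38.9 TPM in submergence, and 26.3 and 24.2 TPM in control. Its drought against submergence log2 fold change of −0.54 ± 0.19 (adjusted p = 0.0358) no longer passed without any 1 of the 4 drought and submergence libraries or without control replicate 2, at values from −0.60 to −0.49, nor with DESeq2 or its RLE scaling in edgeR, at −0.47 with both. Bradi1g31112 is related to Sec15, a subunit of the exocyst, which in yeast tethers secretory vesicles to the plasma membrane. It had 3.95 and 3.98 TPM in cold, 23.8 and 20.0 TPM in heat, 5.05 and 4.61 TPM in drought, 14.6 and 12.2 TPM in submergence, and 8.82 and 10.1 TPM in control. It fell by 1.02 ± 0.18 on the log2 scale in drought against submergence (adjusted p = 0.000928).

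Of the 163 genes, 0 were on the 14 lists drawn up by protein family, of which 13 held at least 1 annotated gene. The largest list held 30 of the 34310 genes, so nothing is read from the 0 about these families. The chaperone and heat shock factor list held 16 genes, of which 3 were higher and 1 was lower in heat against control (8.21% and 8.70% of all genes tested), and 1 was higher and 0 were lower in cold (12.2% and 9.63%). The clock-type factor list held 10 genes, 9 of them tested, of which 4 were higher and 1 was lower in cold, and 0 were higher and 2 were lower in heat. The lists rest on a table of which only a part was used, with 1339 genes, and the other genes of these families were not analysed here.

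The cold replicates differed in a way that ran with drought. Among the 79 genes, cold replicate 1 was at least 2-fold above replicate 2 in 17, on TPM + 1, and replicate 2 was at least 2-fold above replicate 1 in 6. Of the 17 genes, 14 rose in drought against control and 1 fell, with a median log2 fold change of 3.75, whereas of the 56 genes within 2-fold, 30 rose and 12 fell, with a median of 0.91. The same held over all genes in the fit, where 67.5% of the 607 genes at least 2-fold higher in cold replicate 1 rose in drought, against 31.2% of the 22617 genes within 2-fold. In the other direction, 3 and 4 of the tested genes were 2-fold apart in cold. The part of this difference in the results was not tested. When any 1 control, cold or heat library was left out, 79 to 109 genes of the first direction and 78 to 119 of the second met the rule. The genes themselves changed more than the counts: 62 of the 79 and 58 of the 84 still met the rule without control replicate 1, and 63 and 61 without control replicate 2. Without any 1 cold or heat library, 68 to 72 of the 79 and 67 to 80 of the 84 did. The rule was met in every pairing of a stress library with a control library by 35 of the 79 genes and 28 of the 84.

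The genes lower in cold and higher in heat were shorter and scarcer, by their medians, than genes with a control mean of at least 1 TPM. The median length was 1886 bases for the 79 genes and 1297 bases for the 84, beside 1803 bases over the 21076 genes with a control mean of at least 1 TPM, and 19.0%, 29.8% and 15.5% were under 1000 bases. The median control level was 15.9 TPM for the 79 genes, 6.67 TPM for the 84 and 12.9 TPM for the 21076. Over all 34310 genes, many of them barely expressed, 27.9% were under 1000 bases and the median control level was 3.19 TPM. In 5 length classes of about equal size, from shortest to longest, the 84 genes fell as 34, 23, 8, 11 and 8, and the 79 as 18, 13, 15, 20 and 13. Over the 21076 genes the median log2 ratio in cold was −0.39 in the shortest class and −0.18 in the longest, and its part in the choice of the 84 genes was not tested. In cold, 23 of the 84 genes had fewer than 10 mean counts, and in drought 32 did. In heat, 16 of the 79 genes had fewer than 10. Bradi3g16650, Bradi5g00460 and Bradi2g16891, all of the 84, had too few counts to be tested. By identifier, the 79 genes lay on chromosomes 1 to 5 as 22, 21, 19, 8 and 9, and the 84 as 24, 18, 16, 15 and 11.

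Predicted miRNA sites were described from the deposited site table, which gives 1 value per predicted site and names 1 library for it, with no replicates. A predicted site was present in 34 of the 79 genes (43.0%) and in 29 of the 84 (34.5%), beside 50.8% of the 21076 genes. At least 1 PARE read lay at such a site in 24 of the 34 (70.6%, 95% Wilson interval from 53.8% to 83.2%) and in 15 of the 29 (51.7%, from 34.4% to 68.6%), beside 62.0% of those genes with a site. Level 3 or 4 was reached in 1 of the 34 and 1 of the 29, beside 1.24%. These intervals cover counting error only, and both contain the 62.0% of all such genes.

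The Level 4 site was in Bradi5g13663, at position 930 of its transcript 1, for miR7753-5p. It had 13 TP10M, the PARE abundance scaled to a library of fixed size, which was 26.0% of the PARE abundance of the transcript. The library named for it is not among the 44 samples. The gene had 37.7 and 21.2 TPM in cold, 1.14 and 0.56 TPM in heat, 15.3 and 4.72 TPM in drought, 27.9 and 6.20 TPM in submergence, and 2.51 and 2.95 TPM in control. Drought and submergence were above control in both libraries, and the log2 fold changes were 2.17 ± 0.77 and 2.52 ± 0.76 (adjusted p = 0.0313 and 0.0305). Both calls were lost without control replicate 1 (2.00 and 2.37) or control replicate 2 (2.33 and 2.69), the drought call also without drought replicate 1 (1.19) and the submergence call without submergence replicate 1 (0.90). The Level 3 site was in Bradi3g39630, at position 2186 for miR7752-5p, with 33 TP10M or 2.62% of the transcript, again from a library outside the 44 samples. That gene had 36.7 and 40.2 TPM in cold, 397 and 305 TPM in heat, 65.4 and 75.3 TPM in drought, 36.6 and 46.0 TPM in submergence, and 92.7 and 86.2 TPM in control. Submergence and cold overlapped below control, and it fell in submergence against control by 1.36 ± 0.17 on the log2 scale (adjusted p = 0.000681).

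Level 2 was the highest level of 4 of the 34 genes with a site that were higher in cold and lower in heat. It was the highest level of 0 of the 29 genes with a site in the other direction. The share over all genes was not counted, and nothing is read from this split. The 4 genes were described after their values were seen. Bradi3g44640, with a site for miR7757-3p.1 at position 3132, had the highest PARE abundance, 153 TP10M or 0.721% of the transcript, from drought replicate 2. Its mRNA had 132 and 188 TPM in cold, 7.51 and 9.05 TPM in heat, 1906 and 1937 TPM in drought, 135 and 140.3 TPM in submergence, and 22.8 and 21.8 TPM in control. The group of the library named for the site was thus the one with the most mRNA, and the log2 fold change in drought against submergence was 4.26 ± 0.24 (adjusted p = 1.56e-06). Bradi3g16515, with a site at position 1240 for miR156, a family known in plants for targeting SPL transcription factors, had 14 TP10M or 0.146% of the transcript, from cold replicate 1. Its mRNA had 666 and 573 TPM in cold, 16.3 and 27.0 TPM in heat, 35.6 and 44.9 TPM in drought, 60.9 and 123 TPM in submergence, and 67.6 and 108 TPM in control. Here too the named library was of the group with the most mRNA, which was not so for the remaining 2 genes. The sites for miR169, a family known in plants for targeting NF-YA transcription factors, lay at position 880 of transcript 2 of Bradi3g10010 and at position 865 of transcript 1 of Bradi3g57680, with 1 TP10M each. The authors accepted sites from the program psRNATarget up to an expectation of 5. The value was 5 for Bradi3g10010 and Bradi3g44640 and 4.5 for Bradi3g16515, and Bradi3g57680 had none. The library named for Bradi3g10010 was control replicate 1, while its mRNA had 22.4 and 10.7 TPM in cold, 0.92 and 0.72 TPM in heat, 0.66 and 0.46 TPM in drought, 1.10 and 2.96 TPM in submergence, and 2.17 and 3.69 TPM in control. The library named for Bradi3g57680 was drought replicate 2, while its mRNA had 7.69 and 9.30 TPM in cold, 0.39 and 0.21 TPM in heat, 2.01 and 1.75 TPM in drought, 2.33 and 1.04 TPM in submergence, and 2.89 and 2.65 TPM in control. Both mRNAs were highest in cold.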

How the data were processed

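RNA-seq of 10 Brachypodium libraries was used. The authors mapped reads to the B. distachyon v3.1 genome with STAR 2.5.3a and deposited RSEM 1.2.31 expected counts and TPM values per gene. Per the file headers, each file also gives gene length in bases (an RSEM estimate). The authors mapped PARE reads with Bowtie 0.12.7 and deposited, per predicted site, a TP10M abundance rounded to whole numbers and a prominence level (both used as a score), and the share of the transcript's PARE abundance as a fraction.

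Members were found from mean TPM with 1 TPM added. Expected counts were rounded, filtered with filterByExpr (23494 of 34310 genes), TMM scaled (factors from 0.825 to 1.22) and tested with edgeR 4.0.16 (R 4.3.3) in 1 fit of all 10 libraries with no covariate, Benjamini-Hochberg, threshold 0.05. The standard error of a log2 fold change was derived from it and the F statistic (estimate over root F). The labels call replicates biological and do not say how they were grown apart, so p-values measure the spread between these samples. The members and lists were chosen with earlier results of these data known. Named genes were the 10 per direction with the largest smaller ratio, the 5 of highest mean TPM, the 3 just inside and 3 just outside the limits, the 4 largest rises and falls in drought against submergence and the 2 largest against control in each stress, and genes with a Level 3 or 4 site; genes with a Pfam name or a Level 2 site were added after their values were seen. Text on genes was limited by annotation: 0 of 31335 RefSeq records (Brachypodium_distachyon_v3.0) held a gene identifier of the files, and 5 members had a Pfam name. The 14 lists by Pfam family were chaperones, AP2/ERF, clock-type and other factors, dehydration proteins, photosynthesis, cell wall, sugar, signalling, hormones, lipid, redox, transport and protein turnover. Alternatives covered limits, added TPM, scaling, filters, DESeq2 1.42.0, a replicate block and each library left out. Tables of the other 2 species were not used.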

Additional observations from a re-analysis of the deposited data

How the results depend on the processing

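The number of genes depended on the limits and the scale. Higher in cold and lower in heat were 287 genes at a 1.5-fold limit, 18 at a 3-fold limit, 221 with 0.1 TPM added, 34 with 5 TPM added and 35 in every pairing of libraries, against 79. Lower in cold and higher in heat were 820, 4, 460, 14 and 28 under the same settings and 21 with TMM-scaled CPM, against 84. With TPM divided by the TMM factor, chosen after seeing the data, they were 120 and 37. With each library left out, 79 to 109 and 78 to 119 genes met the rule.

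On the members so found, the calls changed in number. Some splits are given by 1 side only, and the sets differ in size from the main ones. The share of all genes called is not set beside these counts, so nothing is read from them about the genes. In the first direction, with 0.1 TPM added, 126 were higher in drought and 36 in submergence against control, and 116 were higher and 21 lower in drought against submergence. With every pairing, 19 and 6 were higher and lower in drought, 5 and 6 in submergence, and 19 and 5 in drought against submergence. With the TMM factor, 26 were lower in drought, 23 were higher in submergence, and 23 were lower in drought against submergence. In the second direction, counts higher and lower with 0.1 TPM added were 42 and 124 in drought, 29 and 40 in submergence, and 40 and 121 in drought against submergence. With every pairing they were 1 and 19, 1 and 7, and 2 and 18, and with the TMM factor 4 and 23, 3 and 9, and 3 and 22.

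Leaving out each library gave, in the first direction, 38 to 48 genes higher and 7 to 16 lower in drought, 9 to 16 and 5 to 13 in submergence, and 38 to 44 and 8 to 14 in drought against submergence. In the second it gave 7 to 11 and 40 to 47, 0 to 7 and 14 to 26, and 9 to 11 and 31 to 44. Of 114 calls of named genes, 1988 of 2052 alternatives kept the call and its sign, 64 lost it and 0 reversed. Many of these genes were named for their large changes in the same comparisons, which favours calls that hold. Some alternatives left out a library in neither group of the comparison, which bears on it mainly through the shared spread. The share of calls kept is therefore not read as a measure of how stable calls are in general.

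Same-numbered samples correlated in their deviations from −0.174 to 0.137 over 10 pairs of groups, with 2 pairs above 0.1. With 2 libraries a group, this cannot tell whether same-numbered samples were grown together. The main fit treated them as unpaired. The replicate block gave 46 and 13, 15 and 10, and 41 and 13 calls in the first direction, and 11 and 47, 7 and 24, and 10 and 41 in the second. The planned motif search was not run, since no promoter sequences were used here. With 2 libraries a group, genes of few counts in cold, heat or drought limit the precision. The depth of the PARE libraries was not taken into account here.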
